A study of Mus musculus with 8 samples.

Results

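The Hox genes encode homeodomain transcription factors that give cells of the vertebrate embryo their position along the head-to-tail axis. In the mouse they lie in 4 clusters, and paralogous genes of different clusters carry the same number. Genes with low numbers sit at one end of a cluster and come on early and far forward in the embryo, and genes with high numbers come on later and towards the tail. Wnt, FGF and retinoic acid signals switch the clusters on around gastrulation, and the caudal-type homeobox factors Cdx1, Cdx2 and Cdx4 act upstream of them in the posterior embryo. All genes of the 4 clusters were examined here with Cdx1 and Cdx4, by gene symbol alone. Cdx2 was left out of the set because it was the sorted reporter. The symbols matched 42 gene identifiers of 37620 in the deposited files, which carry 41 symbols (39 Hox genes and the pair of Cdx genes). Hoxa3 had a pair of identifiers, of which ENSMUSG00000059723 had no count in any library and ENSMUSG00000079560 is the one given below.

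On the NCBIM37 assembly the Hoxa cluster lay on chromosome 6 at 52105366 to 52210874 (minus strand, 11 symbols), and the Hoxb cluster on chromosome 11 at 96055630 to 96229570 (plus strand, 10 genes). The Hoxc cluster lay on chromosome 15 at 102751534 to 102867274 (plus strand, 9 genes) and the Hoxd cluster on chromosome 2 at 74506367 to 74603200 (plus strand, 9 genes). Cdx1 was on chromosome 18 at 61178516 to 61195853 and Cdx4 on chromosome X at 100516737 to 100525931.

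RNA-seq of poly-A RNA was available for 8 libraries in 5 groups, 7 of them from the mouse embryonic stem cell line R1. There were 3 libraries in 2iJ+B-A (days 2, 5 and 11) and 1 each in 2i and 2iJ (both day 5). 2i is the GSK3 inhibitor CHIR99021 with the MEK inhibitor PD0325901, 2iJ adds a JAK inhibitor, and 2iJ+B-A further adds BMP4 and ALK5 inhibitor II. The stem cell media contained serum and no feeder cells. One library held Cdx2-GFP-positive cells of a reporter line sorted from 2iJ+B-A on day 2. The last pair of libraries held mesoderm progenitors from embryoid bodies of R1, on days 3 and 4. By the study's methods these were grown with BMP4, Activin A and Wnt3a from day 2, in a medium for which no serum is listed, and the day 4 cells had been exposed to the Wnt secretion inhibitor IWP-2 since day 3. Days of a group served as its samples, so its spread includes change over days, and nothing in the labels says that libraries came from separate cultures. Medium and culture form both differ between the mesoderm progenitors and the R1 stem cells and cannot be told apart in their comparison.

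Total gene counts were 19810855 in the sorted library and 24532587 to 31453888 in the others, so that 3 counts correspond to 0.0954 to 0.151 CPM, the gene's share of all gene counts of a library scaled to 1000000. The sorted library also had 29.7% of read pairs unmapped, against 2.17% to 3.85% elsewhere. Its Cdx2 level was 234.5 CPM, against 15 CPM in unsorted cells of the same day. The 6 primitive streak markers (T, Mesp1, Mixl1, Eomes, Tbx6 and Lhx1) summed to 1540 CPM in mesoderm on day 3 and 55.7 CPM on day 4, against 3.78 to 21.2 CPM in the other libraries. The 6 cardiac and lateral mesoderm markers went the other way, from 209.9 to 1509 CPM, so these lists differed between the 2 mesoderm libraries. In bulk RNA, fewer cells of a type and less RNA per cell cannot be told apart.

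Promoters of the genes that mark the 2 main patterns are shown first, from RefSeq (GRCm38.p6), each with 250 bases before and 50 after the transcript start. Hoxb1 had the largest called increase in the mesoderm progenitors, and Hoxa10 and Hoxa11 had high ratios of day 5 to day 2 in 2iJ+B-A. Of the 41 symbols, 23 matched the promoter table. Capitals mark matches on either strand to the PBX-HOX letters TGATNNAT, the CDX letters TTTATG and the TCF/LEF letters CTTTGA, which do not overlap here. Hoxa10 has 2 listed starts.
Hoxb1, chr11:96365508-96365807, plus strand: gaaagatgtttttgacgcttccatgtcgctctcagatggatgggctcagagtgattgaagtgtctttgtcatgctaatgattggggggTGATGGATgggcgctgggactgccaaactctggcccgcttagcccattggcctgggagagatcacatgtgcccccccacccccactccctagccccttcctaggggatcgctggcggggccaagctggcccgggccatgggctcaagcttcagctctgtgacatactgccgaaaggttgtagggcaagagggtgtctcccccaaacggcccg
Hoxa10, first start, chr6:52240805-52241104, minus strand: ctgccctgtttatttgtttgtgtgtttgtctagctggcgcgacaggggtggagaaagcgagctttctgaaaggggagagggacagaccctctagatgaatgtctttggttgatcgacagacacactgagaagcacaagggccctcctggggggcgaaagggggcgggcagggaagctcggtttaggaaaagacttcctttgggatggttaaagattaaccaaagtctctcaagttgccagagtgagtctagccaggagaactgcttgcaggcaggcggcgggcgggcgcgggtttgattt
Hoxa10, second start, chr6:52234890-52235189, minus strand: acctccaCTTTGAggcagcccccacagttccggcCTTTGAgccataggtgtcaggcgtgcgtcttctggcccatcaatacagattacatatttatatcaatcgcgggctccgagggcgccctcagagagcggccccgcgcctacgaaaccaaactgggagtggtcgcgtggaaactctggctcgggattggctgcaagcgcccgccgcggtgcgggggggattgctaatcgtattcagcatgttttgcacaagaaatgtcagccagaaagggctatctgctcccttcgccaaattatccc
Hoxa11, chr6:52245761-52246060, minus strand: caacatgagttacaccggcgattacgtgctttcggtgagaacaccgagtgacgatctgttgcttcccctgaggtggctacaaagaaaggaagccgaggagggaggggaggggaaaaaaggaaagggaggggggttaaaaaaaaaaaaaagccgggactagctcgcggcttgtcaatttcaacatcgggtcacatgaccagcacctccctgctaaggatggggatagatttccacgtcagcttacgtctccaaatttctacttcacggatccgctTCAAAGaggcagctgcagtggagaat
The Hoxb1 window holds 1 PBX-HOX match, at 162 bases before the start. The second Hoxa10 window holds 2 TCF/LEF matches and the Hoxa11 window holds 1, and the first Hoxa10 window holds none of the 3 motifs. Among all 32851 promoters of this length, 8.85% hold the PBX-HOX letters, 11.9% the CDX letters and 16% the TCF/LEF letters. Among the 25 member promoters the numbers are 4, 5 and 4. Hoxa7, Hoxb8, Hoxd3 and Hoxd4 each hold the CDX letters in a window, as does 1 of the windows of Hoxd11.

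Across libraries the Hox genes were expressed at low levels, and the set of genes that was on differed between mesoderm and stem cells. Summed over all Hox genes, the level was 40.5 CPM in mesoderm on day 3 and 138 CPM on day 4. It was 27.9 CPM in 2i, 22.7 CPM in 2iJ, 35.9, 76.5 and 70.4 CPM in 2iJ+B-A on days 2, 5 and 11, and 46.3 CPM in the sorted cells. Of the 42 identifiers, 23 reached 1 CPM in at least 1 library, and those reported here are described below. The other 19 stayed below, with maxima from 0 to 0.977 CPM (Hoxd8 on day 11 of 2iJ+B-A), and they include all of Hoxa2, Hoxa4, Hoxa6, Hoxb6, Hoxb8, Hoxc5 to Hoxc12 and Hoxd10 to Hoxd12 besides Hoxd3, Hoxd4, Hoxd8 and the empty Hoxa3 identifier.

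**Figure D1:**
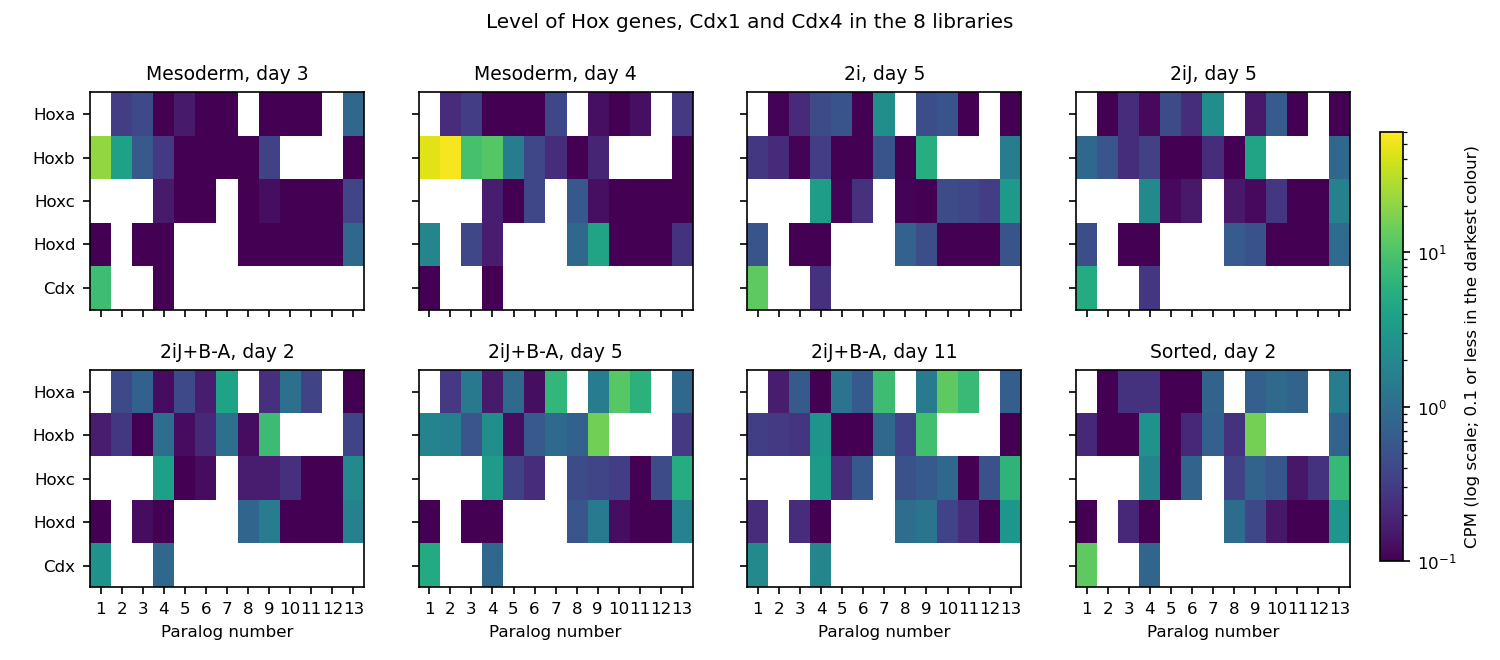
Each panel is a library; rows are the Hox clusters and the Cdx genes, columns are paralog numbers (Cdx1 and Cdx4 stand at their own numbers), colour is CPM on a log scale, and white means that no gene is shown. In mesoderm the brightest cells lie at Hoxb1, Cdx1 and Hoxb2 on day 3 and at Hoxb1 to Hoxb4 on day 4. In the other libraries Hoxb9, Hoxc4, Hoxc13 and Cdx1 are among the brighter cells, as is Hoxa7 except in the sorted cells. Hoxa10 and Hoxa11 join them on days 5 and 11 of 2iJ+B-A.

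The share of Hox counts by paralog number separated the same libraries. Paralogs 1 to 3 took 90.8% of Hox counts in mesoderm on day 3 (Wilson 95% interval 89.1 to 92.3) and 84.5% on day 4 (83.3 to 85.5). They took 9.66% to 27.1% in the other 6 libraries. Paralogs 9 to 13 took 6.91% and 3.96% in mesoderm, and 42.0% to 71.0% elsewhere, highest in the sorted cells. Within 2iJ+B-A paralogs 9 to 13 held 44.3%, 59.0% and 62.5% (days 2, 5 and 11). By cluster, Hoxb held 65.2% and 88.9% of the counts in mesoderm on days 3 and 4, and Hoxa held 37.8%, 48.8% and 53.5% in 2iJ+B-A on days 2, 5 and 11. Counts were not divided by transcript length for these shares, and the intervals here and below cover counting error only.

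**Figure D2:**
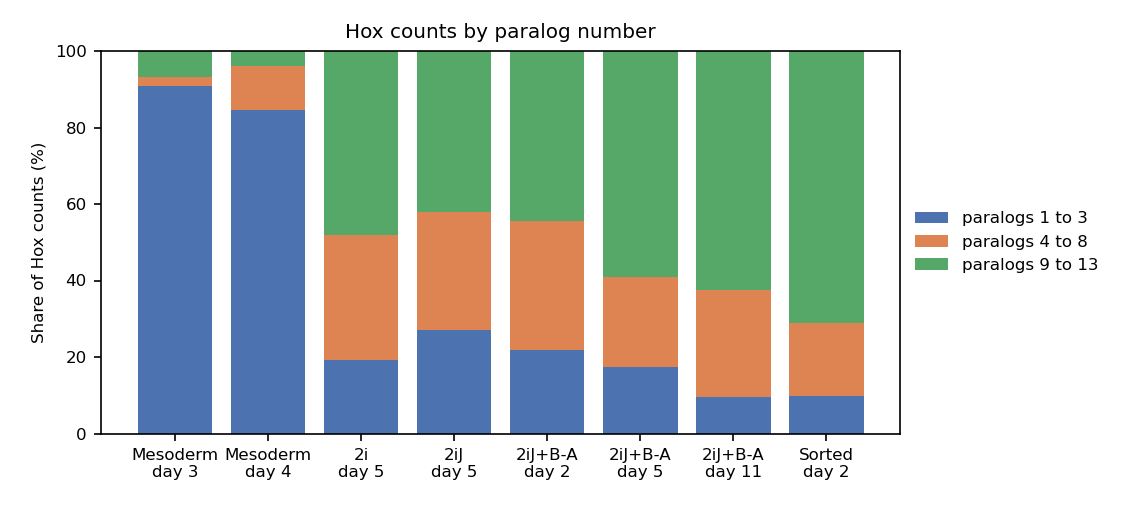
Stacked bars give the percentage of all Hox counts in each library that came from paralogs 1 to 3, 4 to 8 and 9 to 13. Paralogs 1 to 3 fill 90.8% and 84.5% of the 2 mesoderm bars and at most 27.1% of any other.

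Per kilobase of exon, which allows genes to be ranked, Hoxb1 was first in both mesoderm libraries, at 9.15 CPM per kb on day 3 and 19.3 on day 4. Hoxb2 followed on day 4 (16.7 CPM per kb). In the 6 other libraries Hoxb9 was first, at 2.10 CPM per kb in 2i, 1.63 in 2iJ, 3.15, 5.93 and 3.33 in 2iJ+B-A on days 2, 5 and 11, and 6.12 in the sorted cells. The lead of Hoxb9 was narrow on day 11, where Hoxa10 had 3.22 CPM per kb.

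The comparison of mesoderm progenitors (n = 2) with 2iJ+B-A (n = 3) asked which members separate a mesodermal from a treated stem cell state. Hoxb1, Hoxb2 and Hoxb3 were higher in mesoderm, and Hoxa5, Hoxa7, Hoxa10, Hoxa11, Hoxb7, Hoxb9, Hoxb13, Hoxc4, Hoxc13 and Cdx4 were lower. These 13 are the calls among 31 members that had enough counts to test (at least 10 in at least 2 libraries), by the quasi-likelihood test of edgeR at a Benjamini-Hochberg adjusted p-value under 0.05. Over all 16961 genes tested, 27.0% were called, 11.5% as higher and 15.5% as lower. A member can enter the test through the group in which it is high, so the 31 are not a picture of all 42. The median log2 fold change of the 31 was -1.56, or -1.38 with the 2 members that had no count in mesoderm set at their bound, against -0.03 over all genes. The values of the groups did not overlap for 19 of the 31 members, 3 higher and 16 lower, where 26.2% and 31.0% of all genes did so.

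The number of member calls depended on single libraries, and how many of all genes were called in each setting is not given here. It was 7 without mesoderm day 4, and 8, 5 and 6 without 2iJ+B-A day 2, 5 or 11. Without mesoderm day 3 it was 14, and without the sorted library it was 13. Hoxa7, Hoxb1, Hoxb9 and Hoxc4 passed in every one of the 12 alternative settings.

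Hoxb1, a factor of the paralog 1 group known from hindbrain patterning and early mesoderm, had 21.2 CPM in mesoderm on day 3 and 44.9 CPM on day 4. The 2iJ+B-A libraries held 0.163, 1.75 and 0.326 CPM (days 2, 5 and 11), 2i held 0.284, 2iJ 0.856 and the sorted cells 0.202 CPM. Both mesoderm libraries lay far above every other library. Its log2 fold change was 5.47 ± 0.967 (SE), with an edgeR adjusted p of 0.0111. Hoxb2, which lies next to Hoxb1 and also acts in the hindbrain, had 3.85 and 55.1 CPM in mesoderm, against 0.285, 1.59 and 0.293 CPM in 2iJ+B-A. It had 0.213 CPM in 2i, 0.545 CPM in 2iJ and no count in the sorted cells. Its log2 fold change was 5.36 ± 1.27 (adjusted p = 0.0262), and most of it came from day 4, since it was 2.45 and not called when day 4 was left out.

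Hoxb3 had 0.604 and 9.34 CPM in mesoderm and no more than 0.541 CPM outside mesoderm. The day 3 value barely exceeded the highest of the others, which was 2iJ+B-A on day 5. Its log2 fold change was 4.07 ± 1.20, and its adjusted p of 0.0497 was just under the threshold. Without day 4 its fold change was 1.05 and not called. The gene bodies of Hoxb2 and Hoxb3 overlap Hoxb3os on the other strand, so these values rest on strand-specific counting. The strand opposite to Hoxb3 held 157 and 1809 counts in mesoderm, against 19 and 289 on its own strand, and the part of such pairs in the level of Hoxb3 was not tested. The unstranded counts, which leave out pairs that fall on 2 genes, gave 241 in place of 1706 for Hoxb2 in mesoderm on day 4 and 136 in place of 289 for Hoxb3.

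Hoxb4, a factor of the neck and trunk that is also known from blood stem cells, had 0.286 CPM in mesoderm on day 3 and 11.05 CPM on day 4. The 2iJ+B-A libraries held 1.02, 2.42 and 2.77 CPM (days 2, 5 and 11), the sorted cells 2.68 CPM, and 2i and 2iJ 0.32 and 0.35 CPM. The 2 mesoderm days lay on opposite sides of 2iJ+B-A, and the log2 fold change of 1.48 ± 1.21 did not pass (edgeR adjusted p = 0.401). Hoxb5 was seen in mesoderm day 4 at 1.45 CPM (45 counts), and had 0 to 4 counts in each other library.

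Between mesoderm day 3 and day 4 the anterior part of the Hoxb cluster was higher on day 4, with larger ratios at Hoxb2 to Hoxb4 than at Hoxb1. These are single libraries, so ratios carry counting intervals and no test. Hoxb1 was 2.11-fold higher (95% interval 1.93 to 2.32), Hoxb2 14.3-fold (11.9 to 17.4), Hoxb3 15.45-fold (9.72 to 26.0) and Hoxb4 38.6-fold (20.1 to 85.15). Hoxb5, with no count on day 3 and 45 on day 4, was 15.2-fold higher with a floor of 3 counts in place of 0 (lower 95% limit 11.9). Hoxb6 went from 0 to 12 counts (4.06-fold in the same way, lower limit 2.82). Hoxb7, Hoxb8 and Hoxb9 had at most 11 counts on either day and Hoxb13 had none. The intervals of Hoxb2 and Hoxb3 overlap, and the order of their ratios is not resolved.

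In the Hoxd cluster, Hoxd1 went from 2 counts (0.064 CPM) to 57 (1.84 CPM), a ratio of 29.0 (7.66 to 244.9). Hoxd9, a paralog 9 gene of trunk and limb, went from 3 counts (0.095 CPM) to 131 (4.23 CPM), a ratio of 44.4 (14.9 to 217.9). Hoxd8 and Hoxd3 also passed 2-fold, from 3 to 27 and from 1 to 12 counts. Hoxd9 in the other libraries was between 0.404 CPM (sorted) and 1.47 CPM (2iJ+B-A day 2), and Hoxd1 between 0.032 and 0.533 CPM. Hoxd9 was therefore below all 3 libraries of 2iJ+B-A on day 3 and above them on day 4.

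Other members went the other way. Cdx1, which responds to Wnt and retinoic acid, was at 8.14 CPM (256 counts) on day 3 and 0.0323 CPM (1 count) on day 4, a ratio of 252 (44.8 to 9991). Hoxa13 (26 to 9 counts), Hoxd13 (27 to 8 counts) and Hoxc13 (12 to 0 counts), the most posterior paralogs, were also over 2-fold lower on day 4. In all, 13 of 21 members tested were at least 2-fold higher and 5 lower on day 4, where 10.8% of all genes were higher and 13.2% lower. With a minimum of 30 counts, 7 were higher and 2 lower, and the share of all genes was not computed at that minimum. Either minimum applied to the library with the higher CPM, so members could enter through that day alone. The streak marker sum was lower and the cardiac marker sum higher on day 4, in which IWP-2 was also present, and their part in these differences was not tested.

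**Figure D3:**
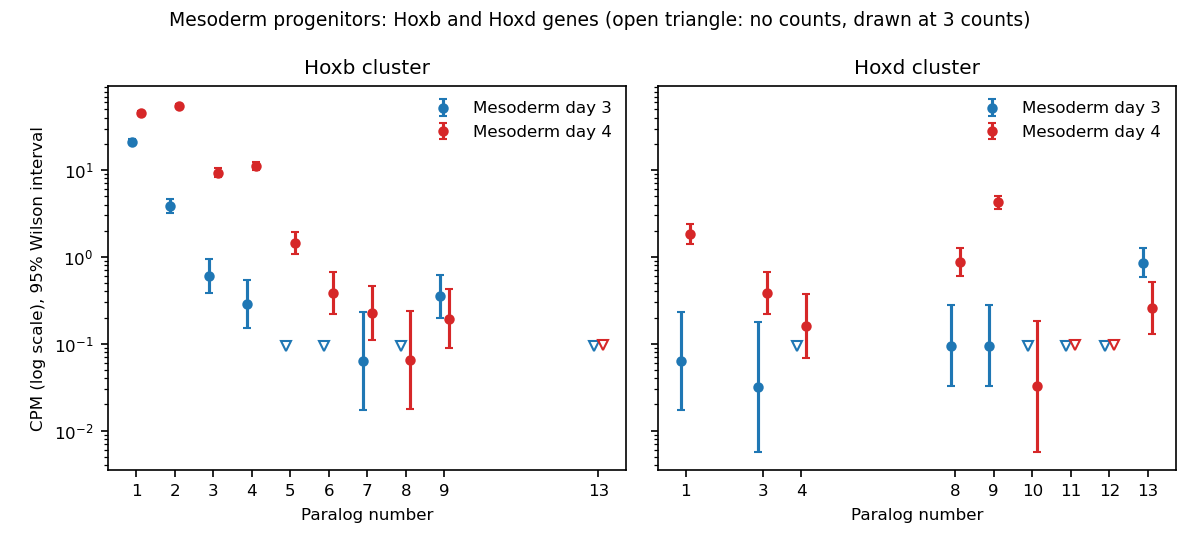
Points give CPM on a log axis for Hoxb and Hoxd genes by paralog number in mesoderm progenitors on day 3 (blue) and day 4 (red), with Wilson 95% intervals; open triangles mark genes with no count, drawn at the level of 3 counts. On day 4 Hoxb1 to Hoxb4 lie at 44.9, 55.1, 9.34 and 11.05 CPM, each above its day 3 interval, as do Hoxd1 and Hoxd9.

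The members lower in mesoderm were mostly of paralogs 5 to 13. Hoxb9, which acts in the thorax and with the other paralog 9 genes in limb position, had 0.350 and 0.194 CPM in mesoderm, and 8.11, 15.3 and 8.56 CPM in 2iJ+B-A. Its log2 fold change of -5.25 ± 0.565 had the lowest adjusted p of the members, 0.00292. Hoxc4 had 0.159 and 0.162 CPM in mesoderm, and 3.67, 3.465 and 3.26 CPM in 2iJ+B-A, the tightest of the called genes (log2 fold change -4.38 ± 0.508, adjusted p = 0.00359). Hoxa7, a trunk gene, had 0.0636 and 0.388 CPM against 4.12, 6.90 and 8.17 CPM (log2 fold change -4.78 ± 0.851, adjusted p = 0.0113). In each of these 3 genes both mesoderm libraries lay below all other libraries, 2i and 2iJ included.

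Hoxa10 and Hoxa11, posterior genes known from the uterus, the kidney and the limb, had 2 and 0 and 3 and 4 counts in mesoderm. In 2iJ+B-A Hoxa10 had 1.06, 11.3 and 12.4 CPM and Hoxa11 had 0.367, 6.17 and 7.71 CPM. On days 5 and 11 the strand opposite to Hoxa11 held 70 and 125 counts, against 194 and 237 on its own. The log2 fold changes of Hoxa10 and Hoxa11 were -7.80 ± 1.61 (adjusted p = 0.0174) and -5.33 ± 1.42 (0.0369). Hoxc13, of the tail and of hair follicles, had 12 and 0 counts in mesoderm and 2.04, 5.28 and 6.35 CPM in 2iJ+B-A (log2 fold change -4.53 ± 1.23, adjusted p = 0.0391).

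The remaining calls rest on few counts. Cdx4 had 3 and 0 counts in mesoderm and 0.856, 0.858 and 1.86 CPM in 2iJ+B-A (log2 fold change -4.50, adjusted p = 0.0253). Hoxa5 had 0.159 and 0.0969 CPM against 0.408, 0.922 and 1.14 CPM (-2.64, 0.0398), and Hoxb7 had 0.0636 and 0.226 CPM against 1.06, 0.890 and 0.846 CPM (-2.64, 0.0354). Hoxb13 had no count in mesoderm and 9, 9 and 3 counts in 2iJ+B-A, which makes it at least 2.60-fold higher there against the floor (adjusted p = 0.0362). Its highest levels were in 2i (1.46 CPM) and 2iJ (0.856 CPM).

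Members reaching 1 CPM that did not pass this test included Hoxa3, Hoxa9, Hoxa13, Hoxb4, Hoxd1, Hoxd9, Hoxd13 and Cdx1, with Hoxb5 not tested. Cdx1 stood at 0.33 ± 1.38 on the log2 scale (edgeR adjusted p = 0.879), and at -6.39 and called without day 3. Without day 4 Hoxb4, Hoxd1 and Hoxd9 stood at -2.79, -0.77 and -3.71, the last of them called. Hoxd13, of digits and the tail end, had 0.858 and 0.258 CPM in mesoderm and 1.67, 1.69 and 2.86 CPM in 2iJ+B-A, without overlap (-1.88 ± 0.672, edgeR adjusted p = 0.0844). Hoxa9 had no count on day 3, 4 counts on day 4, and 0.245, 1.46 and 1.43 CPM in 2iJ+B-A (-3.92 ± 1.28, edgeR adjusted p = 0.0668). Hoxa13 had 0.827 and 0.291 CPM in mesoderm, between the 2iJ+B-A values of 0.0408, 0.858 and 0.684 CPM. Hoxa3 had 0.413 and 0.323 CPM in mesoderm, below the 0.734, 1.30 and 0.618 CPM of 2iJ+B-A (-1.24 ± 0.583, edgeR adjusted p = 0.161).

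**Figure D4:**
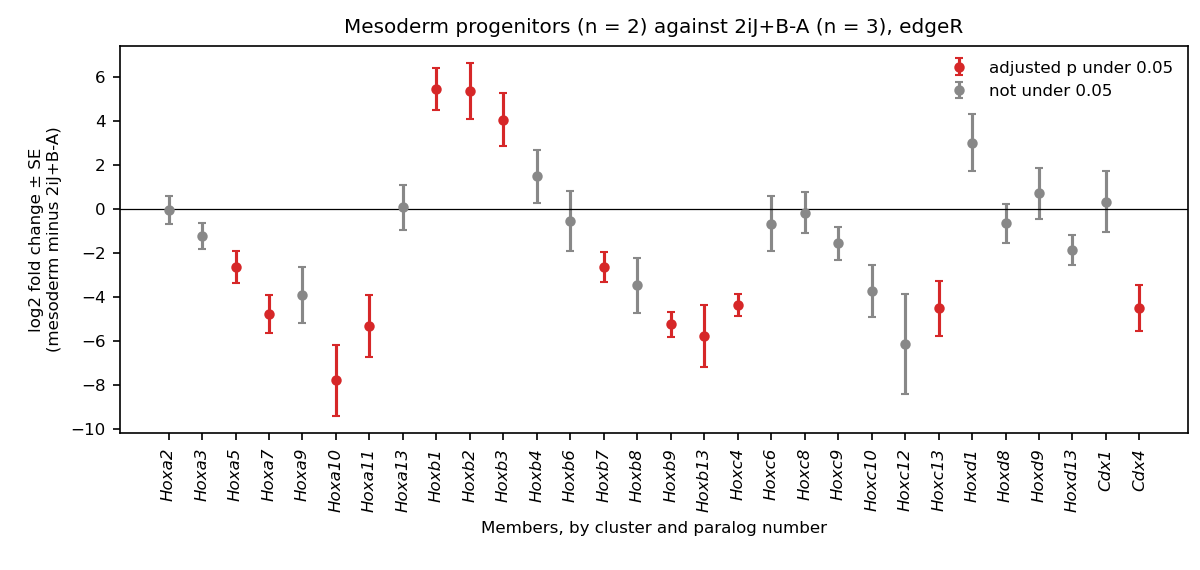
Points give the log2 fold change of the members tested and reported here, mesoderm progenitors minus 2iJ+B-A, with its standard error; red points have an edgeR adjusted p under 0.05. Hoxb1, Hoxb2 and Hoxb3 stand at 5.47, 5.36 and 4.07 and the 10 other red points lie below -2.6.

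Within 2iJ+B-A the day 5 library was above the day 2 library in many members. Of 29 tested, 16 were at least 2-fold higher on day 5 and 0 were lower, where 10.7% and 4.48% of all genes were, with 1 library on each side and no test. With a minimum of 30 counts, 7 were higher and 0 lower, and the share of all genes was not computed at that minimum. The minimum of 10 counts applied to the library with the higher CPM, so members could enter through day 5 alone. Among those called, Hoxc8 (14 counts against 4) and Hoxc9 (12 against 4) had intervals that include 1. High ratios were seen at the posterior end of the Hoxa cluster and at Hoxb1. Hoxa11 had 9 counts on day 2 and 194 on day 5 (16.8-fold, 8.68 to 37.3) and Hoxa10 had 26 and 356 (10.7-fold, 7.17 to 16.6). Hoxa9 was 5.98-fold higher (2.55 to 17.1), and Hoxa13 had 1 and 27 counts (a ratio of 21.1, with an interval of 3.47 to 862). Among the anterior genes, Hoxb1 had 4 and 55 counts (10.7-fold, 3.96 to 40.75), Hoxb2 had 7 and 50 (5.57-fold, 2.51 to 14.6) and Hoxb4 had 25 and 76 (2.37-fold, 1.49 to 3.89). Hoxc13 was 2.59-fold higher (1.88 to 3.63), and Hoxc4 was at 3.67 and 3.465 CPM.

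From day 5 to day 11 these groups parted. Hoxa10 and Hoxa11 were at 12.4 and 7.71 CPM on day 11, with 380 and 237 counts. Hoxb1 was 5.37-fold lower (2.71 to 11.8) and Hoxb2 5.43-fold lower (2.64 to 12.55), each with 10 or fewer counts. Cdx1 was 2.465-fold lower (1.83 to 3.355), whereas Cdx4 was 2.16-fold higher (1.345 to 3.555). Of 31 members tested, 5 were higher and 7 lower by 2-fold or more, where 4.78% and 7.28% of all genes were. With a minimum of 30 counts 1 was higher and 4 lower, and the share of all genes was not computed at that minimum. Members could again enter through the higher library alone. The endoderm marker sum (Sox17, Foxa2, Gata6, Sox7) was 5.87, 17.6 and 64.4 CPM on days 2, 5 and 11, and the trophectoderm marker sum (Cdx2, Eomes, Elf5, Gata3, Krt8, Krt18) was 394, 1119 and 576.5 CPM. Most of the trophectoderm sum came from Krt8 (198.1, 594 and 301 CPM) and Krt18 (160.5, 447.6 and 222.5 CPM). Cdx2 and Gata3 were also highest on day 5, whereas Eomes (4.16, 4.04 and 2.57 CPM) and Elf5 (0.53, 0.318 and 0.26 CPM) were highest on day 2. Whether cells with these markers carried the Hox signal was not tested.

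**Figure D5:**
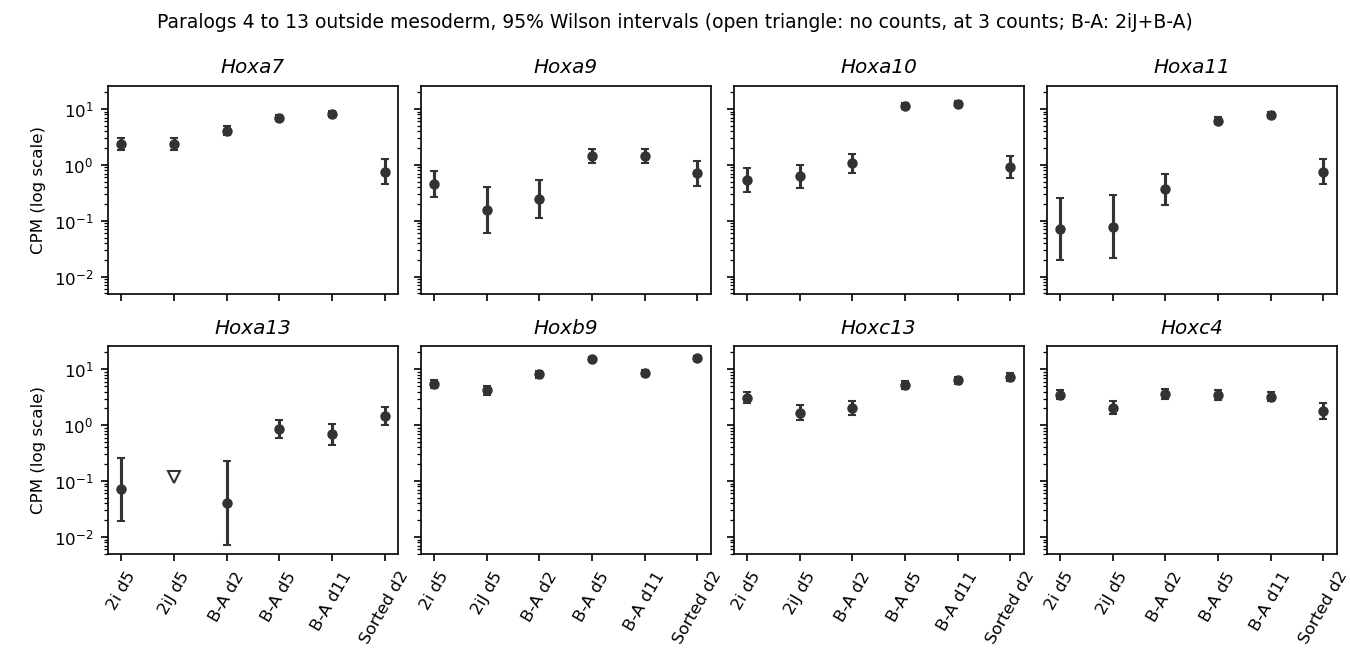
Each panel gives CPM of 1 gene on a log axis in 2i, 2iJ, 2iJ+B-A (days 2, 5 and 11) and the sorted cells, with Wilson 95% intervals; the open triangle marks no counts, drawn at 3 counts. Hoxa10 and Hoxa11 stand at 11.3 and 6.17 CPM on day 5, above their day 2 intervals, while Hoxc4 lies between 1.77 and 3.67 CPM in all 6 libraries.

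Members in 2iJ+B-A were then set against 2iJ, to see whether adding BMP4 and the ALK5 inhibitor changes them. No member passed the edgeR test, in which 0 of all 16961 genes passed (0%), with 1 library of 2iJ. At an unadjusted p under 0.05 there was 1 member, Hoxa11, among 1290 genes, and DESeq2 called 1 member, again Hoxa11. How many of all genes DESeq2 called is not given here. Hoxa11 had 0.0778 CPM in 2iJ (2 counts), and its log2 fold change was 5.78 ± 2.07 (edgeR adjusted p = 0.589). Hoxa10 had 0.623 CPM in 2iJ (3.65 ± 1.63, edgeR adjusted p = 0.685), Hoxa7 2.37 CPM (1.36 ± 0.906, edgeR adjusted p = 0.823) and Hoxb9 4.20 CPM (1.27 ± 0.581, edgeR adjusted p = 0.695). Hoxa13 had no count in 2iJ, which puts 2iJ+B-A at least 4.52-fold higher on average against the floor. All 3 libraries of 2iJ+B-A were above 2iJ in 20 of the 31 members and below it in 3, where this held for 33.9% and 23.8% of all genes. The median log2 fold change of the 31 was 1.34, against 0.03 over all genes, and it was 1.32 with the 2 members at 0 in 2iJ set at their bound.

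On day 5 alone, which matches the day of 2iJ and was added after the values had been seen, 23 of 30 members tested were at least 2-fold higher in 2iJ+B-A and 2 lower, where 14.3% and 7.28% of all genes were. With a minimum of 30 counts, 12 were higher and 0 lower, and the share of all genes was not computed at that minimum. Hoxa11 had 194 counts against 2, a ratio of 79.2 (21.6 to 659). Hoxa10 was 18.2-fold higher (11.04 to 32.15), Hoxa9 9.395-fold (3.43 to 35.9), Hoxb4 6.90-fold (3.45 to 15.7), Hoxa3 5.58-fold (2.36 to 16.1), Hoxb9 3.63-fold (2.94 to 4.52), Hoxc13 3.15-fold (2.24 to 4.52) and Hoxa7 2.91-fold (2.18 to 3.93). The pair of members below 2iJ were Hoxb13 (9 against 22 counts) and Hoxd1 (1 against 12 counts). The minimum of 10 counts applied to the library with the higher CPM, so members could enter through 2iJ+B-A alone. Among those called higher, Hoxb3 (17 against 6 counts), Hoxc5 (11 against 3), Hoxc8 (14 against 4) and Hoxc9 (12 against 3) had intervals that include 1.

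JAK inhibition itself was read from 1 library of 2iJ against 1 of 2i. Of 20 members tested, 2 were at least 2-fold higher and 5 lower, where 4.81% and 2.91% of all genes were. With a minimum of 30 counts only Cdx1 was left, at 5.18 CPM in 2iJ and 12.4 CPM in 2i, which is 2.396-fold lower (1.96 to 2.95). The other 6 had at most 22 counts in the higher library, and the share of all genes was not computed at the minimum of 30. Hoxb9, Hoxa7 and Hoxc4 were at 5.40, 2.38 and 3.52 CPM in 2i and 4.20, 2.37 and 2.06 CPM in 2iJ. Hoxc13 had 3.13 and 1.67 CPM.

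The sorted library was compared with 2iJ+B-A to ask how Cdx2-expressing cells differ, and 0 of 31 members passed the edgeR test, where 5.42% of all genes did (3.34% higher and 2.08% lower). The lowest edgeR adjusted p of the members were 0.105 (Hoxa5), 0.1145 (Hoxa2) and 0.129 (Hoxa7), each lower in the sorted cells. DESeq2 called 1 member, Hoxa7, and how many of all genes it called is not given here. Hoxa7 had 0.757 CPM in the sorted cells, below all 3 libraries of 2iJ+B-A (log2 fold change -3.02 ± 1.04, edgeR adjusted p = 0.129), and it was called when either mesoderm library was left out of the fit. The sorted library lay above all 3 in 7 members and below them in 11, where 33.5% and 41.7% of all genes did. The median log2 fold change of the 31 was -0.51, against -0.08 over all genes. Line, sort and alignment rate differ with this library and cannot be told apart. Culture day differs as well in this comparison, since 2iJ+B-A includes days 5 and 11. Hoxa10 stood at -3.12 ± 1.57 (edgeR adjusted p = 0.256), although its 0.909 CPM in the sorted cells was near the 1.06 CPM of 2iJ+B-A on day 2.

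Against unsorted 2iJ+B-A of the same day, 10 of 23 members tested were at least 2-fold higher and 6 lower, where 20.5% and 16.7% of all genes were. With a minimum of 30 counts, 3 were higher and 3 lower, and the share of all genes was not computed at that minimum. Members could again enter through the higher library alone. Cdx1 was at 12.4 CPM in the sorted cells, 4.69-fold higher (3.55 to 6.26), next to 2.65 CPM unsorted and 12.4 CPM in 2i. Hoxc13 was at 7.32 CPM, 3.59-fold higher (2.59 to 5.06), and Hoxb4 at 2.68 CPM, 2.625-fold higher (1.60 to 4.41). Hoxb9 was at 15.75 CPM and Hoxd13 at 2.83 CPM, both within 2-fold of unsorted cells. Hoxa13 was at 1.46 CPM (29 counts against 1). Hoxa7 was 5.44-fold lower (3.15 to 10.1), Hoxd9 3.63-fold lower (1.66 to 9.05) and Hoxc4 2.08-fold lower (1.39 to 3.16). Fibroblast markers summed to 79.75 CPM in the sorted cells, with Col1a1 at 42.15 CPM, against sums of 6.97 to 39.1 CPM elsewhere, and their part in these values was not tested.

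Partners and upstream factors of the Hox genes were read from fixed lists. The TALE homeodomain proteins of the Pbx, Meis and Pknox families bind DNA together with Hox proteins. Of 9 TALE genes tested, 5 were higher in mesoderm than in 2iJ+B-A and 0 lower, where 11.5% and 15.5% of all genes were. Pbx3 had 63.4 and 46.3 CPM in mesoderm and 4.97, 6.36 and 4.59 CPM in 2iJ+B-A (log2 fold change 3.38, edgeR adjusted p = 0.00157). Pknox2 stood at 2.86 and Meis3 at 2.04 (edgeR adjusted p = 0.0054 and 0.0299). In the sorted cells Pknox1 was higher than in 2iJ+B-A (102 CPM, log2 fold change 1.91, edgeR adjusted p = 0.0152).

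Of 20 posterior signals and regulators tested, 9 were higher in mesoderm and 2 were lower, where 11.5% and 15.5% of all genes were. T (Brachyury, a streak and tail bud factor) had 547 and 6.30 CPM in mesoderm and at most 1.36 CPM elsewhere (log2 fold change 9.34, edgeR adjusted p = 0.0144). Fgf8, Wnt3 and Tbx6 stood at 7.39, 5.89 and 5.62 (edgeR adjusted p = 0.00638, 0.0046 and 0.0214 in turn), and each was lower on day 4 than on day 3. Cdx2 had 40.2 and 17.25 CPM in mesoderm, against 15, 30.1 and 17.5 CPM in 2iJ+B-A (edgeR adjusted p = 0.448). Of the other lists, 3 of 14 genes that flank the clusters were lower in mesoderm and 0 higher. Of 8 trithorax writers and H3K27 demethylases, 2 (Ash2l and Wdr5) were lower. With 15.5% of all genes lower, such small counts do not set these lists apart. Of 4 hindbrain genes tested, 2 were higher in mesoderm and 0 lower, where 11.5% and 15.5% of all genes were. Egr2, 1 of these 2, was low, at 1.78 and 2.91 CPM in mesoderm and 0.122, 0.191 and 0.13 CPM in 2iJ+B-A. It was higher in mesoderm by 3.96 on the log2 scale (edgeR adjusted p = 0.00584). Of 4 ParaHox and Evx genes tested, 1 was called, Gsx1, which had no count in mesoderm and 0.318 to 0.326 CPM in 2iJ+B-A. In 2iJ+B-A against 2iJ none of these lists had a call by the edgeR test, in which 0 of all 16961 genes passed.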

How the data were processed

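The authors sequenced strand-specific poly-A libraries as read pairs, trimmed them, and aligned them to NCBIM37 with STAR 2.4.2a, per the labels and methods. The deposited files give raw counts per gene, unstranded and for each strand, with no adjustment between experiments, although the study adjusted its own values between days of work. The annotation release of the authors was not given in the sources used here. Reverse-strand counts were used, after comparison of both strands (5.03% to 6.47% of strand counts were on the other strand). Symbols and coordinates came from GENCODE vM1, which named 37205 of 37620 identifiers. The STAR summary rows, which name no gene, hold 19.9% to 54.5% of read pairs and were left out.

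Groups and days came from the labels. CPM is the share of all reverse-strand gene counts, with Wilson 95% intervals, and a floor of 3 counts. A joint edgeR 4.0.16 fit (R 4.3.3) of all 8 libraries used TMM scaling (0.966 to 1.04), 5 group terms and 3 residual degrees of freedom, after a filter of 10 counts in 2 libraries (16961 genes), with Benjamini-Hochberg adjustment over all genes. Standard errors are the log2 fold change over the square root of F. Single libraries were compared by CPM ratio with exact conditional intervals, 2-fold or more being called where the higher library had at least 10 counts and, for this call alone, counts under 3 were set to 3. Ratios printed for 1 to 3 counts use the counts as they stand. P-values measure the spread between these samples, which may be technical. Alternatives were DESeq2 1.42.0 and its size factors, no filter, unstranded counts, fewer groups, a slope on day and a higher count minimum. Each mesoderm, 2iJ+B-A and sorted library was also left out in turn. On simulated counts the edgeR script was tested and its calls checked. Members reaching 1 CPM are named, and from each list up to 4 genes with the largest called change, and some of these genes are not reported here. The members and lists were chosen with earlier results of these data known.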

Additional observations from a re-analysis of the deposited data

Results flagged for a closer look

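Counts on the strand opposite to the gene took a larger share than in the whole library for Hoxb3 and Hoxa11 in some libraries, against 0 to 3 counts in 2i. Over whole libraries this strand held 5.03% to 6.47% of strand counts. Hoxb3 had 157 forward-strand counts in mesoderm on day 3 and 1809 on day 4, which is 89.2% and 86.2% of its stranded counts, and 26 in 2iJ and 52 on day 5 of 2iJ+B-A. The antisense transcript Hoxb3os, on chromosome 11 at 96206795 to 96216005 (minus strand, NCBIM37), shares positions with Hoxb3 and had 311 and 3969 counts in mesoderm and 54 and 105 in these 2 other libraries. Hoxa11 had 70 forward-strand counts on day 5 of 2iJ+B-A and 125 on day 11, or 26.5% and 34.5% of its stranded counts. Hoxa11as, antisense to it, had 11, 135 and 245 counts on days 2, 5 and 11. What these counts come from was not tested.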

How the results depend on the processing

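No paired analysis was possible because the labels give no replicate numbers that groups share. For mesoderm progenitors against 2iJ+B-A, leaving out 1 library of either group gave 5 to 14 called members (13 with all 8 libraries), and without the sorted library, an alternative chosen after seeing the data, 13. The other alternatives gave 9 to 13. How many of all genes were called is not given here for any alternative, in this comparison or the next 2. Against 0 with all libraries, the sorted cells against 2iJ+B-A gave 1 called member (Hoxa7) with DESeq2, 1 with only the compared groups, and 1 without either mesoderm library, and 2iJ+B-A against 2iJ gave 1 (Hoxa11) with DESeq2. With a minimum of 30 counts in place of 10, members past 2-fold numbered 9 in place of 18 (mesoderm days), 1 in place of 7 (2iJ and 2i), 7 in place of 16 (days 5 and 2), 5 in place of 12 (days 11 and 5), 6 in place of 16 (sorted and day 2) and 12 in place of 25 (day 5 against 2iJ). The share of all genes past 2-fold was not computed at 30 counts. The log2 fold change against 2iJ+B-A turned for Cdx1 (-6.39, and 1.37 at its highest) without mesoderm day 3, and for Hoxb4 (-2.79, and 2.49), Hoxd1 (-0.77, and 4.07) and Hoxd9 (-3.71, and 1.72) without day 4, where the second value is the highest with another library left out. These genes differed between the 2 mesoderm days, so each such value is that of the other day. Of the 13 called members, Hoxa7, Hoxb1, Hoxb9 and Hoxc4 passed in all 12 alternatives, and the other 9 were lost in 2 to 6. The cause of these losses was not tested. Most members were under 10 CPM and 3 of the 5 groups had 1 library, which limits the precision of every value here.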

Other observations

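Genes next to and inside the clusters were read in a window of 60 kb, chosen after their values were seen. Evx1, a homeobox gene beside Hoxa13 that acts in the streak and tail bud, had 193.5 CPM in mesoderm on day 3 and 6.91 CPM on day 4. The 2iJ+B-A libraries held 0.448, 3.34 and 7.19 CPM (days 2, 5 and 11), and 2i held 0.0711 CPM (edgeR adjusted p = 0.0538 for mesoderm against 2iJ+B-A). The lincRNA 5730457N03Rik, which overlaps Evx1 on the other strand, had 81.1 and 4.07 CPM in mesoderm. Gm15055 (Halr1), beside the Hoxa cluster, had 19.6 CPM in 2i, 14.75 CPM in 2iJ, 5.50, 8.49 and 5.86 CPM in 2iJ+B-A, and 0 and 0.162 CPM in mesoderm, where it was lower (edgeR adjusted p = 0.00701). Ttll6, beyond Hoxb13, had 16.7 to 35.6 CPM in the 6 libraries outside mesoderm and 0.286 and 0.0323 CPM in mesoderm (log2 fold change -7.49, edgeR adjusted p = 0.00203). Gm53, a gene between Hoxb13 and Hoxb9, had 21.0 to 41.1 CPM outside mesoderm and 0.350 and 0.129 CPM in mesoderm. Its edgeR result is not given here.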
